A study of Mus musculus with 7 samples.

Results

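The myeloid chemokines and chemokine receptors described here are 10 genes, 5 ligands and 5 receptors, taken by name from the 25033 gene symbols counted in lineage-depleted (lin-) bone marrow cells of mice with and without HRP-2. The ligands are Cxcl2, Ccl3, Ccl4, Ccl6 and Ccl9, and the receptors are Cxcr2, Cxcr4, Ccr1, Ccr2 and Cx3cr1. All 10 genes were found and all 10 passed the filter on low counts, as did 11265 genes in all. The 3 wild type mice (Hrp2+/+) and the 4 knockout mice were aged 6 to 8 weeks, and the knockouts carried the germline tm1b allele of Hdgfrp2, now named Hdgfl2, on C57BL/6N. This allele acts in every tissue from conception, so marrow cells and their surroundings lacked HRP-2 alike. No mouse received a treatment, and each library came from 1 mouse. The lin- fraction is what remains of lysed femur and tibia marrow once cells with surface markers of mature lineages have been taken out.

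Chemokines are small secreted proteins that steer leukocytes along gradients by binding receptors with 7 membrane-spanning segments, which signal through inhibitory G proteins. In bone marrow, CXCR4 holds neutrophils and progenitors in the marrow in response to CXCL12, and CXCR2 draws neutrophils out into the blood in response to CXCL1 and CXCL2. CCR2 lets inflammatory monocytes leave in response to CCL2, whereas CX3CR1, the receptor of the membrane-anchored ligand CX3CL1, marks monocytes and their precursors. CCL3 acts on CCR1, and CCL4 is its close relative. CCL6 and CCL9 are made by myeloid cells and act on CCR1.

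The genes lie in a few places of the mouse genome (GRCm38, GENCODE M21). Ccl9 (chr11:83572919-83578636), Ccl6 (chr11:83587882-83593087) and Ccl3 (chr11:83647844-83649355) lie on the minus strand of chromosome 11, and Ccl4 (chr11:83662584-83664683) follows on the plus strand. The gaps were 9245 bp between Ccl9 and Ccl6, 54756 bp between Ccl6 and Ccl3, and 13228 bp between Ccl3 and Ccl4. Cxcl2 (chr5:90903871-90905938, plus strand) stands apart from them. Of the receptors, Cxcr2 (chr1:74153989-74161246, plus strand) and Cxcr4 (chr1:128588199-128592293, minus strand) share chromosome 1. Ccr1 (chr9:123962124-123968692, minus strand), Ccr2 (chr9:124101950-124113557, plus strand) and Cx3cr1 (chr9:119901616-120069879, minus strand) share chromosome 9, with 133257 bp between Ccr1 and Ccr2.

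Upstream sequences are shown for Cxcl2, the ligand whose level varied most between mice, beside Ccl3, an inducible ligand whose level varied little. RefSeq holds a promoter window for 9 of the 10 genes on GRCm38.p6. The consensus site of NF-kB, the transcription factor of inflammatory responses, was searched on both strands of the 250 bases before the RefSeq start. It was present in 7.25% of 32851 windows, and among the members in those of Cxcl2, Ccl9 and Ccr1. The Cxcl2 stretch (chr5:90903731-90903870, plus strand) ends 28 bases before the RefSeq start, so that it stays outside the annotated gene. Its capitals mark overlapping matches on both strands, which begin 97 bases before that start. The exact run GGGAATTTCC was present in 28 windows, 0.0852% of them. The Ccl3 stretch (chr11:83649379-83649518, minus strand, read along the gene) ends at the RefSeq start and holds no match to the consensus.
Cxcl2 upstream: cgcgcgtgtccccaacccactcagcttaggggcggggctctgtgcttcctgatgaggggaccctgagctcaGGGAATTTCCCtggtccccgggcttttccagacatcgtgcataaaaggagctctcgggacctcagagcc
Ccl3 upstream: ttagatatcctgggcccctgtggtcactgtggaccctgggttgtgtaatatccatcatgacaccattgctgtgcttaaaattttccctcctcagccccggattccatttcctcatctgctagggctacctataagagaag

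Ccl6 and Ccl9 are neighbours with related products, and the 100 bases before each annotated gene (chr11:83593088-83593187 and chr11:83578637-83578736, both minus strand, read along the gene) are shown to compare them. Capitals mark the longest run that both share, 13 bases, which begins 55 bases before Ccl6 and 14 bases before Ccl9.
Ccl6 upstream: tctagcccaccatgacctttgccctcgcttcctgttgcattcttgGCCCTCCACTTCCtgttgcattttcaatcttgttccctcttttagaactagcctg
Ccl9 upstream: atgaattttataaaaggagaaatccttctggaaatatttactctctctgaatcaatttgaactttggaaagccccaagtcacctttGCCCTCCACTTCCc

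Inducible chemokine transcripts are known for AU-rich elements in the 3′ UTR, where proteins bind that shorten the life of the RNA. The core pentamer ATTTA was counted in the 3′ UTR of the principal transcript of 20736 genes, overlaps included. Cxcl2 held 11 copies in 734 bases, or 15.0 per kb, and 0.243% of the 19372 genes with a 3′ UTR of at least 100 bases were as dense. Ccl3 held 5 copies in 409 bases, or 12.2 per kb, a density that 0.459% of genes reached. Ccl4 followed with 6.62 and Ccl6 with 4.24 per kb. The median over those 19372 genes was 1.33 per kb, and Ccl9, at 2.03, was nearer to it. Among the receptors the density ran from 0.387 for Cx3cr1 to 2.96 for Ccr2. The 30-base stretches with the most copies, shown with the pentamer in capitals, lay at chr5:90905327-90905356 (plus strand) in Cxcl2 and at chr11:83648085-83648114 (minus strand, read along the gene) in Ccl3.
Cxcl2 AU-rich stretch: tATTTATTTAtctatgtATTTATTTATTTA
Ccl3 AU-rich stretch: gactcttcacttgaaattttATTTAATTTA

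**Figure D1:**
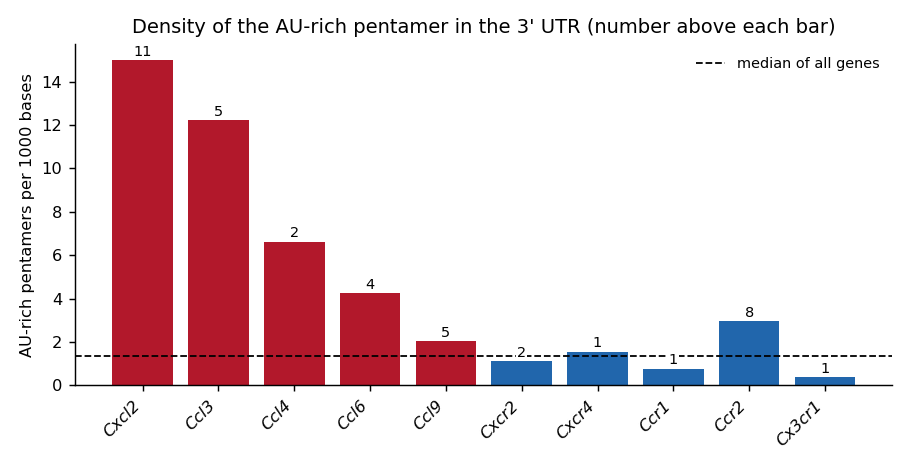
Copies of the AU-rich pentamer per kb of 3′ UTR (vertical axis) for the 5 ligands (red bars) and the 5 receptors (blue bars), with the number of copies above each bar. The dashed line is the median over all genes with a 3′ UTR of at least 100 bases. Cxcl2 at 15.0 and Ccl3 at 12.2 stand highest, and 3 receptors lie under the median of 1.33.

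The libraries held 3525665 to 5605158 reads on genes, and 0.0912% to 0.125% of those reads fell on the 10 members. Levels are given as CPM, read counts scaled to a common library size with edgeR's TMM factors. The libraries sample 1 fragment per transcript near its 3′ end, so CPM was not divided by gene length, and levels of different genes are compared on that scale per transcript. A floor of 3 reads corresponded to 0.561 to 0.840 CPM and covers counting error only. The fewest reads on a member in any mouse were 21 and the most 1400. Hdgfl2, the targeted gene (chr17:56079634-56100607), had a wild type mean of 46.1 ± 3.42 CPM (SD, n = 3) and a knockout mean of 1.29 ± 0.938 CPM (SD, n = 4), and was lower in all 4 knockout mice than in any wild type mouse. Knockout replicate 3 was the only mouse with the sex-linked expression of a male. Its Xist level was 0.561 CPM, while the other 6 mice had 229 to 303 CPM. Its Y-linked Ddx3y was at 104 CPM, while the others had at most 0.777 CPM. Knockout replicate 4 stood apart in markers of stroma and endothelium, which summed to 867 CPM there and to 56.9 to 160 CPM elsewhere. Markers of several lineages were read in every library: the 14 neutrophil markers, some of which precursors also express, summed to 8062 to 25383 CPM, the 12 monocyte markers to 3914 to 5062 CPM, and the 13 stem and progenitor markers to 1356 to 1662 CPM.

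In wild type cells 7 members had means above 100 CPM, and Cxcl2, Ccr1 and Cxcr2 lay below them. Ccl9 had the highest mean, 182 ± 4.47 CPM (SD, n = 3), followed by Cxcr4, Ccr2, Cx3cr1, Ccl4, Ccl6 and Ccl3, which ran from 145 down to 114 CPM. Cxcl2 came next with a mean of 27.2 ± 29.8 CPM (SD, n = 3), then Ccr1 and Cxcr2 at 11.6 and 11.5 CPM. Of the 9 neighbouring pairs in this order, 8 had ranges over mice that overlapped, and Ccl3 and Cxcl2 did not. In knockout cells Ccl9 again came highest at 192 ± 20.3 CPM (SD, n = 4) and Cxcr4 followed at 183 ± 55.2 CPM (SD, n = 4). In the knockout order 3 pairs did not overlap, namely Cx3cr1 above Ccr2, Ccl3 above Cxcl2, and Cxcl2 above Cxcr2. Fewer cells of a type and less RNA per cell cannot be told apart in these bulk samples.

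**Figure D2:**
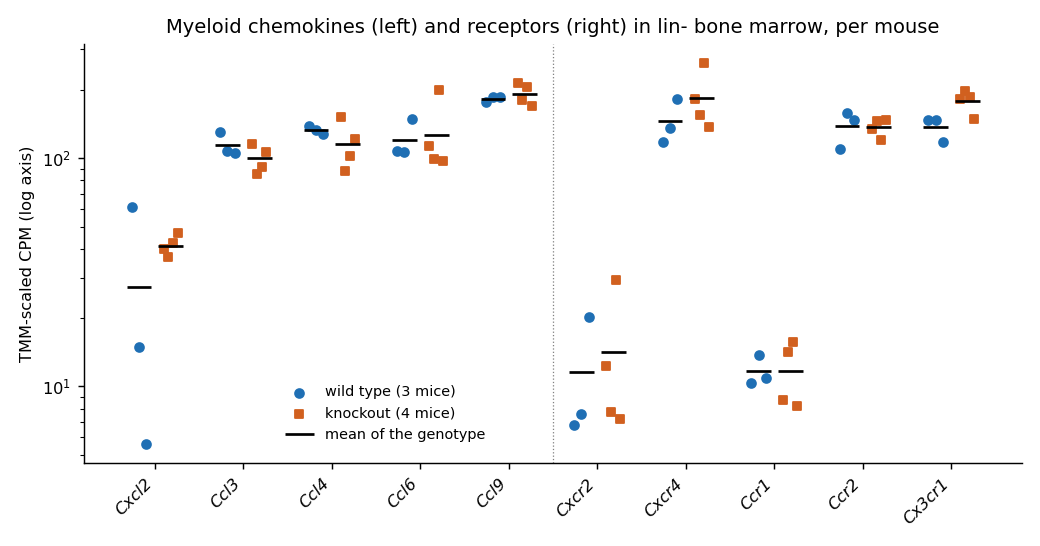
Level of each member in each mouse, as TMM-scaled CPM on a log axis, with ligands left and receptors right of the dotted line, wild type mice as circles, knockout mice as squares and the mean of each genotype as a black line. Cxcl2 spans 5.58 to 61.2 CPM in wild type and 36.8 to 46.8 CPM in knockout mice, and Cx3cr1 is the only member without overlap between the genotypes.

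The study's comparison asks what loss of HRP-2 changes in these cells. No member passed an adjusted p-value of 0.25, the study's threshold, in edgeR's quasi-likelihood test. Of all tested genes 0.0178% passed, namely Hdgfl2 and, higher in knockout cells, Tspoap1, which is no chemokine gene. The study applied this threshold with DESeq2 and reported a longer list. DESeq2 called 21 genes here and 0 members. All members had an adjusted p-value of 0.999 by edgeR. At an unadjusted p-value under 0.05, 1 of 10 members was called, Cx3cr1, against 3.63% of all tested genes. For 1 of 10 members, again Cx3cr1, every knockout mouse lay above every wild type mouse, as for 2.37% of all tested genes, and 5.16% were free of overlap in either direction. Of the members, 7 had a log2 fold change above 0, against 49.8% of all tested genes, and this count ran from 5 to 8 over the alternative fits. The median log2 fold change was 0.08 over the members and 0.00 over all tested genes. Each member's log2(CPM + 1) was also compared by exact permutation, two-sided, over the 35 splits of the 7 mice, whose smallest possible p is 0.0286.

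**Figure D3:**
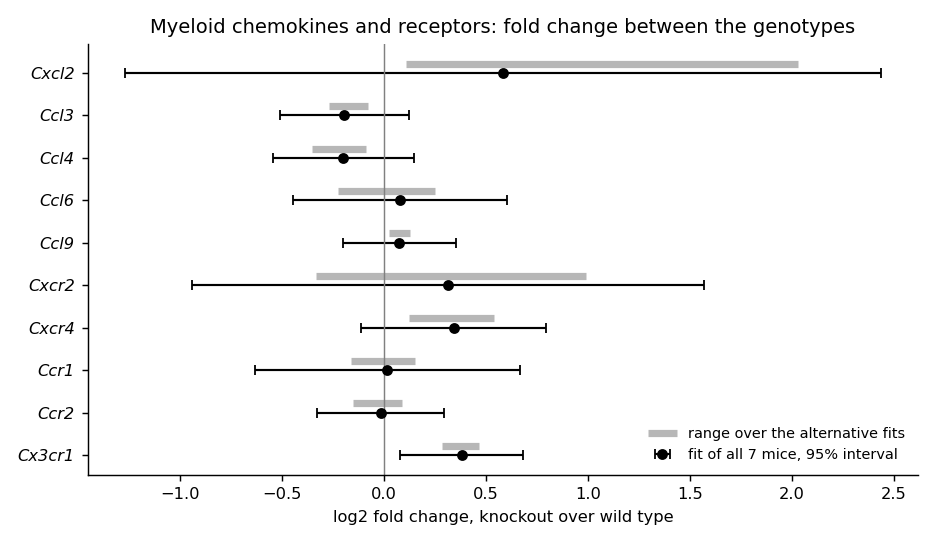
Log2 fold change of each member, knockout over wild type, from edgeR's quasi-likelihood fit of all 7 mice (points, with 95% intervals as bars) and the range over the 19 alternative fits (grey bands). The Cx3cr1 interval, 0.08 to 0.68, is the only one that leaves out 0, and the widest intervals are those of Cxcl2 and Cxcr2.

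Cxcl2 encodes a neutrophil attractant that macrophages, neutrophils and their precursors make within minutes to hours of a stimulus. It stood at 61.2, 14.8 and 5.58 CPM in wild type replicates 1 to 3, from 279, 53 and 21 reads. In knockout replicates 1 to 4 it stood at 39.8, 36.8, 42.4 and 46.8 CPM. The wild type mice therefore lay on both sides of the knockout mice, 1 above all of them and 2 below. The coefficient of variation was 110% among wild type and 10.3% among knockout mice, and the highest wild type value was 10.97 times the lowest. The means were 27.2 ± 29.8 CPM (SD, n = 3) with HRP-2 and 41.5 ± 4.26 CPM (SD, n = 4) without it. This gave a log2 fold change of 0.58, with a standard error of 0.74 and a 95% interval from -1.27 to 2.43. The two-sided exact permutation test gave p = 0.257. The value moved with the wild type mice and the fit: the log2 fold change was 0.11 without wild type replicate 3, 0.29 without wild type replicate 2, 1.15 with limma-voom and 1.06 with the replicate number as a block, none of them called. Wild type replicate 1 decided the call: without it the log2 fold change was 2.03 with a standard error of 0.33 and an adjusted p-value of 0.0297 by edgeR, whereas the adjusted p-value was between 0.959 and 1.00 in the other 18 alternatives. No other member was called in any alternative. Reads of Cxcl2 could be confused with its neighbour Cxcl3, since their transcripts share a run of 157 bases, longer than the 75-base reads. Cxcl3 was listed at no more than 1.49 CPM in any mouse.

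Lists of genes that respond to stimulation were set beside Cxcl2. The 21 genes of an NF-kB response list, which holds no member, summed to 2586, 1887 and 1596 CPM in wild type replicates 1 to 3, in the order of Cxcl2, and to 2134 to 2529 CPM in knockout mice. Of its 20 tested genes 7 had this order in the wild type mice, and Nfkbia made up a large share of the sum. The 25 listed immediate-early genes, which switch on within minutes of handling or signalling, summed to 8283, 5962 and 3945 CPM in wild type replicates 1 to 3 and to 6604, 7757, 7397 and 12666 CPM in knockout replicates 1 to 4, and 18 of the 24 tested had the order of Cxcl2 in the wild type mice. Nfkbia, which encodes the inhibitor that NF-kB induces in a feedback loop, stood at 1201, 620 and 601 CPM in the wild type mice and at 970 ± 67.7 CPM (SD, n = 4) in the knockout mice. How many of all tested genes had the order of Cxcl2 in the wild type mice was not counted, so these list counts have no background. The part of stimulation or handling in the Cxcl2 values was not tested. Of the immediate-early genes 22 of the 24 tested had a log2 fold change above 0, with a median of 0.40, against 49.8% of all tested genes. An unadjusted p-value under 0.05 was reached by 3, against 3.63% of all tested genes, and all 3 were higher in knockout cells. These were Nr4a2, a nuclear receptor, with a log2 fold change of 0.96, Klf4, a transcription factor that is also on the monocyte list, with 0.70, and Ier5 with 0.38. None passed the adjusted threshold. Fos followed the order of the list in wild type mice, at 1035, 620 and 421 CPM in wild type replicates 1 to 3 and between 835 and 1613 CPM in knockout mice.

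The NF-kB response genes showed no shared direction between genotypes, with 10 of the 20 tested above and 10 below 0 and a median log2 fold change of 0.02. At an unadjusted p-value under 0.05, which 3.63% of all tested genes reached, 3 were higher (Tnf, Il1b and Ier3) and 2 lower (Nfkb1 and Birc3) in knockout cells. None of the NF-kB response genes passed the adjusted threshold. Tnf, the inflammatory cytokine, had the smallest p-value among them. It stood at 9.21, 9.80 and 9.03 CPM in wild type and at 20.02, 20.6, 21.3 and 21.4 CPM in knockout mice, so the genotypes did not overlap. Tnf had a log2 fold change of 1.15, with a standard error of 0.24 and an adjusted p-value of 0.364 by edgeR, which missed the threshold. Nfkb1, which encodes the p50 subunit, had lower values in all 4 knockout mice, namely 79.3 ± 12.8 CPM (SD, n = 4) against 111 ± 15.4 CPM (SD, n = 3), for which edgeR gave -0.48 on the log2 scale and an adjusted p-value of 0.999. Unlike Cxcl2, Tnf varied little among the wild type mice.

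Ccl3 and Ccl4 encode the macrophage inflammatory proteins MIP-1α and MIP-1β, which draw monocytes, T cells and NK cells. Ccl3 stood at 131, 108 and 105 CPM in wild type replicates 1 to 3 and at 116, 85.6, 91.9 and 107 CPM in knockout replicates 1 to 4. Ccl4 stood at 138, 133 and 128 CPM in wild type and at 152, 88.3, 103 and 121 CPM in knockout mice. Knockout replicates 2 and 3 were the lowest mice for both genes, and knockout replicate 1 was the highest for Ccl4. Fitted log2 fold changes were -0.20 with a standard error of 0.15 for Ccl3 and -0.20 with a standard error of 0.16 for Ccl4. Their 95% intervals ran from -0.51 to 0.12 and from -0.55 to 0.15, and the exact permutation p-values were 0.257 and 0.314. Without knockout replicate 1, the Ccl4 values of the genotypes no longer overlapped and the log2 fold change was -0.35, with an adjusted p-value of 0.999 by edgeR. It was -0.090 without knockout replicate 2, and that of Ccl3 was -0.081 without wild type replicate 1. The ratio of Ccl3 to Ccl4 within a mouse stayed between 0.764 and 0.969 over all 7 mice. By contrast, the ratio of Cxcl2 to Ccl3 was 0.468, 0.138 and 0.0530 in wild type replicates 1 to 3 and between 0.344 and 0.461 in knockout mice. In the wild type mice Ccl3 and Ccl4 had the same order as Cxcl2 with a far smaller span. The longest run that the Ccl3 and Ccl4 transcripts share was 9 bases, so their reads could be told apart.

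**Figure D4:**
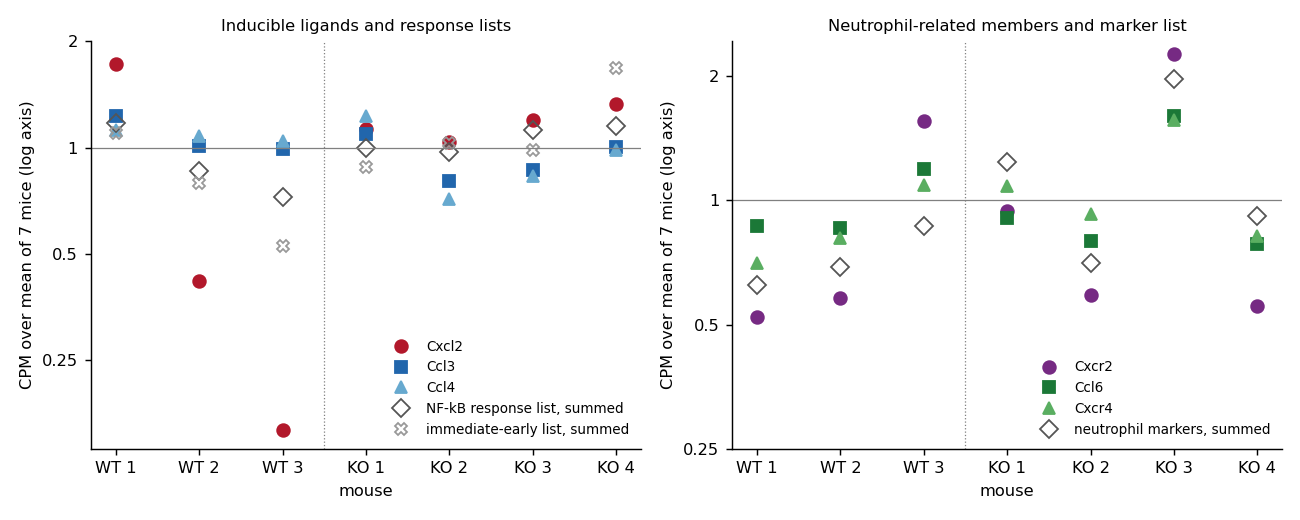
Level of each gene or summed list in each mouse, divided by its mean over the 7 mice, on a log axis, with wild type mice left and knockout mice right of the dotted line. In the left panel Cxcl2 and the NF-kB response sum are highest in wild type replicate 1, with Cxcl2 at 61.2 CPM, and Cxcl2 and both sums are lowest in wild type replicate 3, with Cxcl2 at 5.58 CPM, while Ccl3 and Ccl4 stay near 1. In the right panel Cxcr2, Ccl6, Cxcr4 and the neutrophil marker sum are all highest in knockout replicate 3.

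Ccl6 and Ccl9 encode ligands of CCR1 that myeloid cells make without stimulation. Ccl9 varied little, at 177, 185 and 185 CPM in wild type and 213, 180.4, 204 and 169.9 CPM in knockout mice. Its log2 fold change was 0.07 with a standard error of 0.13 and a 95% interval from -0.20 to 0.35. The exact permutation p was 0.429. Ccl6 stood at 108, 107 and 148 CPM in wild type and at 113, 99.1, 199 and 97.7 CPM in knockout mice, so wild type replicate 3 and knockout replicate 3 were higher than the rest. The log2 fold change of Ccl6 was 0.08 with a standard error of 0.24 and a 95% interval from -0.45 to 0.60, and the exact permutation p was 0.943. Without knockout replicate 3 it was -0.23 with a standard error of 0.16 and an adjusted p-value of 1.00 by edgeR. The ratio of Ccl6 to Ccl9 was 0.608, 0.577 and 0.799 in wild type mice and 0.529, 0.550, 0.973 and 0.575 in knockout mice. In both genotypes replicate 3 had the highest ratio. Their transcripts share at most 25 bases in a row, under the read length. Ccl6 overlaps the noncoding gene E230016K23Rik on the other strand, and the strand counted is not stated.

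Cxcr2 and Cxcr4 encode the receptors with opposed effects on neutrophil release. Cxcr2 was scarce, at 6.80, 7.56 and 20.2 CPM in wild type and 12.2, 7.69, 29.3 and 7.23 CPM in knockout mice, from 27 to 157 reads. Wild type replicate 3 and knockout replicate 3 were the highest in their genotypes, as for Ccl6. The log2 fold change of Cxcr2 was 0.31 with a standard error of 0.56 and a 95% interval from -0.94 to 1.57. The exact permutation p was 0.657. Without knockout replicate 3 the log2 fold change was -0.33, and without wild type replicate 3 it was 0.99, with adjusted p-values of 1.00 and 1.00 by edgeR. Cxcr4 stood at 118, 135 and 182 CPM in wild type and at 181, 154, 262 and 137 CPM in knockout mice. Its log2 fold change was 0.34 with a standard error of 0.21 and a 95% interval from -0.11 to 0.80, and the exact permutation p was 0.371. That value was 0.12 without knockout replicate 3, and it was 0.54 without wild type replicate 3, when the genotypes did not overlap. The ratio of Cxcr2 to Cxcr4 lay between 0.0498 and 0.112 in all mice with a wild type mean of 0.0749 ± 0.0313 (SD, n = 3) and a knockout mean of 0.0706 ± 0.0288 (SD, n = 4). Its highest values, 0.111 and 0.112, belonged to wild type replicate 3 and knockout replicate 3.

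The neutrophil markers were set beside these genes. Their sum was 8062, 8898 and 11189 CPM in wild type replicates 1 to 3 and 16031, 9140, 25383 and 11854 CPM in knockout replicates 1 to 4. Within each genotype the sum was highest in replicate 3, the mouse also highest in Cxcr2, Cxcr4 and Ccl6. In knockout mice 13 of the 14 markers were highest in replicate 3, but in wild type mice only 2 were, S100a8 and Retnlg, and 10 were highest in replicate 2. Across genotypes the order differed, since wild type replicate 3 had a lower sum than knockout replicates 1 and 4 but more Cxcr2 and Ccl6. All 14 markers had a log2 fold change above 0, with a median of 0.77, against 49.8% of all tested genes. Of the 14, 1, Il1r2, had an unadjusted p-value under 0.05, against 3.63% of all tested genes. No neutrophil marker passed the adjusted threshold. S100a8 and S100a9, which encode the calprotectin subunits, had log2 fold changes of 0.69 and 0.78, and Ly6g, the surface marker of neutrophils, had 0.84 with a standard error of 0.38. The part of neutrophil content in the receptor values was not tested. Knockout replicate 3 was also the only mouse with male sex-linked expression, and sex cannot be told apart from its other traits.

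Ccr1 and Ccr2 lie in the same region of chromosome 9 and encode receptors of monocytes and their precursors. Ccr1 was scarce, at 10.3, 13.7 and 10.9 CPM in wild type and 8.75, 14.1, 15.7 and 8.22 CPM in knockout mice, so the wild type mice lay inside the knockout range. Ccr1 had a log2 fold change of 0.02 with a standard error of 0.31, and its 95% interval ran from -0.63 to 0.66. Ccr2 stood at 110.4, 158 and 147 CPM in wild type and at 135, 145, 120.3 and 147 CPM in knockout mice. For Ccr2 the log2 fold change was -0.02 with a standard error of 0.15 and a 95% interval from -0.33 to 0.29. The exact permutation p-values were 0.943 for Ccr1 and 0.886 for Ccr2. Over the 19 alternatives the log2 fold change changed sign for both, between -0.16 and 0.15 for Ccr1 and between -0.15 and 0.088 for Ccr2.

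Cx3cr1 was the only member whose genotypes did not overlap. It stood at 147, 147.3 and 118 CPM in wild type replicates 1 to 3 and at 183, 197, 186 and 148.7 CPM in knockout replicates 1 to 4. Knockout replicate 4 lay just above the highest wild type mouse, and scaling by library size alone or by upper-quartile factors made them overlap. The wild type mean was 137 ± 16.6 CPM (SD, n = 3) and the knockout mean 179 ± 20.9 CPM (SD, n = 4), with a fitted fold of 1.30 that did not pass the adjusted threshold. On the log2 scale this was 0.38 with a standard error of 0.14 and a 95% interval from 0.08 to 0.68. The unadjusted p-value was 0.0165 and the adjusted p-value 0.999 by edgeR, and 120 genes had a smaller p-value. The unadjusted p-value rose above 0.05 without knockout replicate 2, to 0.0531, and without wild type replicate 3, to 0.0981, by edgeR. The exact permutation test gave p = 0.0571. Over the 19 alternatives the log2 fold change of Cx3cr1 stayed between 0.28 and 0.46, and the adjusted p-value between 0.949 and 1.00. Cx3cr1 overlaps 9 other annotated genes through a long isoform, and with the strand not stated reads of those genes may have been set aside as ambiguous.

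Markers of monocytes and macrophages were set beside Cx3cr1. The 12 monocyte markers summed to 3914 to 4002 CPM in wild type and 4133 to 5062 CPM in knockout mice, but of the 11 tested 6 had a log2 fold change above 0 and 5 below, with a median of 0.10. Ly6c2, the marker of inflammatory monocytes, had a log2 fold change of 0.34 and Irf8, a transcription factor of the monocyte and dendritic lineages, had -0.01. The 12 macrophage markers summed to 399 to 456 CPM in wild type and 286 to 330 CPM in knockout mice. Of these 12, 8 had an unadjusted p-value under 0.05, all lower in knockout cells, against 3.63% of all tested genes. The median log2 fold change of the 12 markers was -0.60. C1qc, which encodes a chain of complement C1q, came nearest to the threshold, with 34.4 ± 2.56 CPM (SD, n = 3) against 17.2 ± 1.12 CPM (SD, n = 4), for which the log2 fold change was -1.001 and the adjusted p-value 0.322 by edgeR. The part of monocyte and macrophage content in the Cx3cr1 values was not tested.

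Most of the other chemokine ligands and receptors were too scarce to pass the filter. Of 54 other chemokine ligands and receptors, 21 passed the filter, 10 of 35 ligands and 11 of 19 receptors, and 10 had no read in any mouse. None passed an adjusted p-value of 0.25 by edgeR. Of the 21, 1 had an unadjusted p-value under 0.05, against 3.63% of all tested genes. None was free of overlap, against 5.16% of all tested genes. Their log2 fold change was above 0 in 12 and below 0 in 9, with a median of 0.18. Of the further ligands of CXCR2, Ppbp ran from 2.13 to 13.2 CPM in wild type and from 3.11 to 87.7 CPM in knockout mice, and Cxcl1 was read in 1 mouse, at 0.747 CPM. Cx3cl1, the ligand of CX3CR1, was at no more than 1.54 CPM. Cxcr1, the relative of Cxcr2, reached 0.498 CPM. The levels of Cxcl1, Cx3cl1 and Cxcr1 lie at or near the floor of 3 reads, so a difference could not be seen at this depth.

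Ccl2, the ligand of CCR2, had the smallest p-value of the other chemokine ligands and receptors. It stood at 9.21, 5.32 and 3.99 CPM in wild type and at 4.28, 17.7, 15.5 and 17.7 CPM in knockout mice, so knockout replicate 1 lay among the wild type mice. For Ccl2 the log2 fold change was 1.13 with a standard error of 0.45, and the adjusted p-value was 0.999 by edgeR. Cxcl12, the stromal ligand of CXCR4, stood at 10.5, 26.0 and 13.02 CPM in wild type and at 21.4, 16.4, 96.4 and 18.9 CPM in knockout mice. Knockout replicate 3, the mouse highest in Cxcl12, was also the mouse highest in Cxcr4. Ccl5, a ligand of CCR1 made by T and NK cells, was the most abundant chemokine outside the members, with a wild type mean of 237 ± 29.8 CPM (SD, n = 3), a knockout mean of 209.9 ± 88.1 CPM (SD, n = 4) and a log2 fold change of -0.18. Pf4, the platelet chemokine, ran from 104 to 190.2 CPM in wild type and from 20.8 to 572 CPM in knockout mice. Ccr9, a receptor of lymphoid and plasmacytoid dendritic precursors, had log2 fold change 0.23, Cxcr6, a receptor of T and NK cells, had -0.46, and Cxcl9, an interferon-induced ligand at 4.39 CPM in wild type cells, had -1.03.

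**Figure D5:**
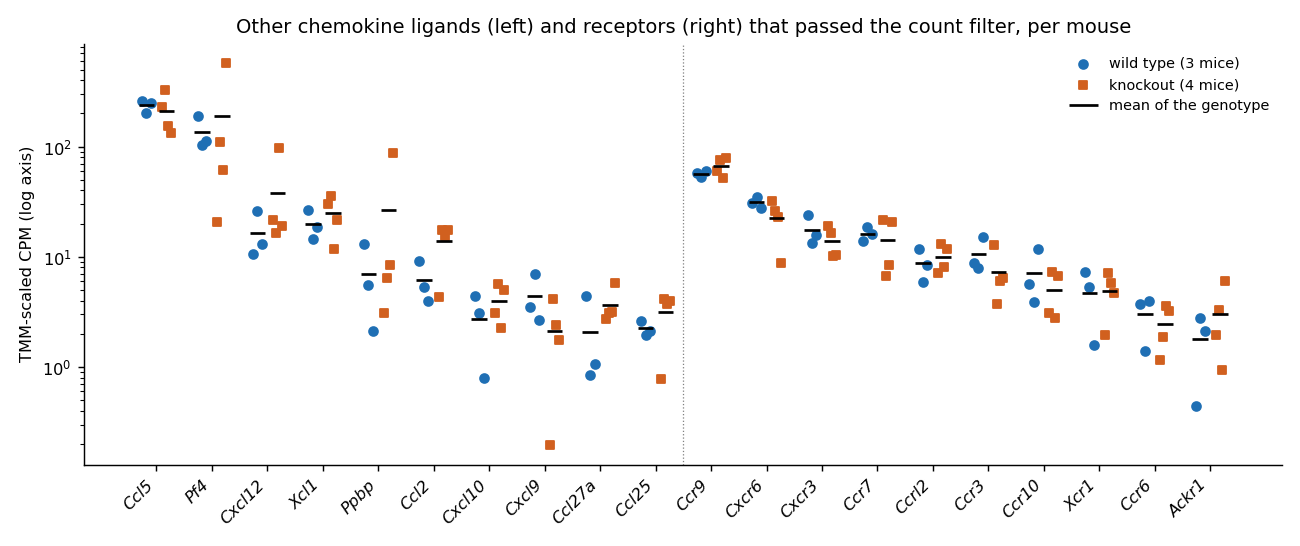
Level in each mouse, as TMM-scaled CPM on a log axis, of the 10 other ligands (left) and 10 of the 11 other receptors (right of the dotted line) that passed the count filter, with wild type mice as circles, knockout mice as squares and the mean of each genotype as a black line. Every gene drawn shows overlap between the genotypes. Knockout replicate 4 stands far above the rest for Pf4, at 572 CPM, and Ppbp, at 87.7 CPM, and knockout replicate 3 for Cxcl12, at 96.4 CPM.

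No gene of the shared machinery below the receptors was called. All 35 listed signalling genes, which encode G protein subunits, receptor kinases, arrestins, regulators of G protein signalling and effector kinases, passed the filter. None passed an adjusted p-value of 0.25 by edgeR and none an unadjusted p-value of 0.05, 23 had a log2 fold change above 0 and 12 below, and the median was 0.04. They summed to between 5671 and 6837 CPM in a mouse, with means over the 7 mice from 3.68 CPM for Rgs16 to 1037 CPM for Rgs2. Gnai2, the inhibitory G protein subunit that chemokine receptors use in leukocytes, had a wild type mean of 772 ± 116 CPM (SD, n = 3) and a knockout mean of 792 ± 71.0 CPM (SD, n = 4). Rgs2, which shuts down G protein signals, had a log2 fold change of 0.24 and Rgs14, of the same family, had 0.40 with a standard error of 0.20. Grk6, a receptor kinase that acts on CXCR4, had -0.26, and Arrb2, which encodes β-arrestin 2, had 0.23.

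Of 12 receptors for other attractants, such as complement fragments, leukotriene B4 and sphingosine 1-phosphate, 8 had a log2 fold change above 0, with a median of 0.11, and none passed the adjusted threshold. C3ar1, the receptor of complement fragment C3a, stood at 3.29, 10.9 and 6.64 CPM in wild type and at 1.94, 0, 2.99 and 0.997 CPM in knockout mice, without overlap and with an adjusted p-value of 0.999 by edgeR. Ltb4r1, the leukotriene B4 receptor of neutrophils, was higher in all 4 knockout mice, with 50.0 ± 6.996 CPM (SD, n = 4) against 40.3 ± 1.93 CPM (SD, n = 3), and the log2 fold change was 0.31. S1pr4 had a log2 fold change of -0.37.

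The profile of each member over the 7 mice was compared with that of every other tested gene, as the root mean square difference of standardised log2(CPM + 1), where 0 means the same shape. Among the members themselves, the closest pairs were Ccl6 and Cxcr2 at 0.264, Cxcr2 and Cxcr4 at 0.333, Ccl3 and Ccl4 at 0.425, and Ccl6 and Cxcr4 at 0.475. Outside the members, Cxcr2 and Ccl6 both lay closest to Sorl1, a sorting receptor, at 0.203 and 0.218, with Crispld2 next for Cxcr2 and D030028A08Rik next for Ccl6. Cxcr4 lay closest to Clec4d, a lectin receptor of myeloid cells, at 0.156 and to Itgam, which encodes CD11b, at 0.158. Ccl9 lay closest to Lcp1, the leukocyte actin bundler, at 0.178 and to Prr13, Ccr1 to Hsp90b1 at 0.0904 and to Eloc, and Ccr2 to Cdkn2c at 0.141 and to Mief1. Ccl3 lay closest to Golm1 at 0.204 and to Gpr18, and Ccl4 to Rpl27a at 0.162 and to Dcaf4. Cxcl2 lay closest to Sema6b at 0.226 and to Ric1, and Cx3cr1 to Cd8a at 0.221 and to Mtus1. With 11265 genes compared over 7 mice, these names describe the 7 libraries alone.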

How the data were processed

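RNA was sequenced from lin- bone marrow of 3 HRP-2 wild type and 4 knockout mice. Per the labels and the study's methods, the authors made 3′ end libraries from 500 ng of RNA, read 75 bases, aligned to GRCm38 and quantified genes with STAR 2.4.2a on Ensembl 84, and tested genes with DESeq2. They deposited whole-number read counts per gene symbol, not normalized. The tally rows of these counts are laid out like those of htseq-count, so the counting tool and annotation may differ from those described. The strand counted is not given in the sources used here, so overlapping genes and near-identical paralogs are uncertain. The 5 tally rows that name no gene, 29.4% to 33.6% of reads, were left out.

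TMM factors, CPM, the filterByExpr filter and the robust quasi-likelihood test with Benjamini-Hochberg adjustment over 11265 genes were computed from them with edgeR 4.0.16 (R 4.3.3). The threshold was 0.25, with 0.05 beside it. The standard error is the size of the log2 fold change divided by the root of F. The 21.3% biological coefficient of variation is edgeR's common estimate. On simulated counts the test recovered 84 of 100 genes changed by 1 and 100 of 100 changed by 2 on the log2 scale among 11084 genes, with 68 false calls among 252. The simulation held 200 changed genes, which eases the adjusted threshold, whereas 2 genes were called in the data. Its recovery therefore does not give the chance of calling a single member. No 2 libraries of a genotype agreed within sampling noise.

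Coordinates and 3′ UTRs (APPRIS principal transcripts) are from GENCODE M21, promoter windows from RefSeq on GRCm38.p6. The members and gene lists were chosen with earlier results of these data known. All members were named with values. Genes named from the lists were drawn from the 6 most abundant and 3 smallest-p other chemokines, the 3 smallest-p and 2 most abundant signalling genes, the 2 most abundant and 2 smallest-p genes of each other list, and the 2 genes nearest each member. The text prints only some of those that the rule allows for the lists, and this choice was made after their values were seen. A further gene is not reported here. Cxcl1, Cxcl3, Cx3cl1, Cxcr1, Ier5, Il1b, Ier3, Birc3, Retnlg, Epx, Gzmb and Tspoap1 were named after their values were seen. Alternatives were DESeq2 1.42.0, limma-voom (limma 3.58.1), the likelihood ratio test, no robust estimation, other scaling and filters, Rn45s (4.94% to 20.6% of reads) left out or as a covariate, the replicate number as a block, and each mouse left out.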

Additional observations from a re-analysis of the deposited data

Results flagged for a closer look

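In 37 levels, ratios and summed lists of the 4 knockout mice, 1 mouse was tested for standing apart from the other 3 by Dixon's criterion, and 7 values did so. For independent, normally distributed values chance alone gives about 1 in 20, or 1.85 values. The levels were not log-transformed and some share genes, so that number is only a rough guide. Ccl6 was at 199 CPM in knockout replicate 3, against 97.7 to 113 CPM in the other knockout mice. The ratio of Ccl6 to Ccl9 was 0.973 in the same mouse, against 0.529 to 0.575. Cxcl12, the ligand of CXCR4, was also highest there, at 96.4 CPM against 16.4 to 21.4 CPM. Ccl2 was lowest in knockout replicate 1, at 4.28 CPM against 15.5 to 17.7 CPM. Pf4, the platelet chemokine, was at 572 CPM in knockout replicate 4, against 20.8 to 109 CPM. The summed megakaryocyte markers, which hold Pf4, were at 898 CPM in that mouse against 107 to 192 CPM. The summed markers of stroma and endothelium, which hold Cxcl12, were at 867 CPM in knockout replicate 4 against 82.8 to 160 CPM, with Col1a1 at 519 CPM. The causes of these values were not tested.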

How the results depend on the processing

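Over 19 alternatives the log2 fold changes of Cxcl2, Ccl3, Ccl4, Ccl9, Cxcr4 and Cx3cr1 kept their direction, and only Cxcl2 without wild type replicate 1 was called, at 2.03. Leaving out single mice turned Ccl6 to -0.23 (knockout replicate 3) and -0.003 (wild type replicate 2), Cxcr2 to -0.33 (knockout replicate 3), Ccr1 to between -0.16 and -0.028 in 4 cases, namely -0.086, -0.16, -0.060 and -0.028 without knockout replicates 2 and 3 and wild type replicates 1 and 3, and Ccr2 to 0.039, 0.088 and 0.029 without knockout replicate 3 and wild type replicates 2 and 3. At the other end with a mouse left out, Ccr1 reached 0.15, Ccr2 -0.15 and Cxcr2 0.99. Limma-voom turned Ccr1 to -0.0053 and the Rn45s covariate turned Ccr2 to 0.010.

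The number of genes with an adjusted p-value under 0.25, 2 with edgeR's quasi-likelihood test, was 21 with DESeq2, 29 with the likelihood ratio test, 41 with no filter, 1 with at least 10 reads in every mouse, 4 without robust estimation and 8 with the Rn45s covariate, and 2 to 7 with a mouse left out. Under 0.05 it was 2, and 6, 6, 19 and 1 with DESeq2, the likelihood ratio test, no filter and the read minimum, and 1 to 5 with a mouse left out. Members called were 0, and 0 to 1 with a mouse left out. Members without overlap were 1, but 0 with library size alone and 0 with upper-quartile factors, and 1 to 3 with a mouse left out. The causes were not tested. The other chemokines and the signalling genes gave 0 calls in every alternative.

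Same-numbered mice did not deviate together (correlations averaging -0.13, and 0 of 6 mice closest to their own number). So few mice cannot settle whether the numbers pair them. With the replicate block, 1 gene passed 0.25 and 1 gene passed 0.05, and 0 members were called.

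Counting error is largest for Cxcl2, Cxcr2 and Ccr1, and other chemokine genes at the floor of 3 reads could not be compared.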

Other observations

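Other cell types of the marrow gave further values. Of 13 tested markers of eosinophils, basophils and mast cells, 12 had a log2 fold change below 0, with a median of -0.35. An unadjusted p-value under 0.05 by edgeR was reached by 5, against 3.63% of all tested genes. All 5 were lower in knockout cells (Prg2, Prg3, Epx, Gzmb and Slc18a2). None passed the adjusted threshold. Prg2, the eosinophil major basic protein, stood at 1171, 1103 and 1291 CPM in wild type and at 953, 902, 913 and 883 CPM in knockout mice, without overlap. Prg3, its relative, had a log2 fold change of -0.91, and Slc18a2, the monoamine transporter of mast cells and basophils, had -0.76 with a standard error of 0.18 and an adjusted p-value of 0.544 by edgeR. Mcpt8, the basophil protease, had -0.30. This list shares no gene with the chemokines and their receptors.

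For the other marker lists the median log2 fold change was 0.00 for 10 B cell markers, -0.24 for 11 T and NK cell markers, -0.03 for 11 dendritic cell markers, -0.21 for 7 erythroid markers, 0.04 for 7 megakaryocyte markers, 0.92 for 7 markers of stroma and endothelium and -0.21 for 11 stem and progenitor markers. Klre1, an NK cell receptor, was lower in all 4 knockout mice, with a log2 fold change of -1.05 and an adjusted p-value of 0.999 by edgeR. Cd8a, the gene nearest to Cx3cr1 over the 7 mice, had 0.59, and Kit, the progenitor receptor, had -0.23. The marker lists were written by hand, and their part in the chemokine values was not tested.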
